A study of Gossypium hirsutum with 120 samples.

Results

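The sugar uptake carriers of upland cotton were followed here as 31 rows of the deposited protein table, of 49663 rows in all. A row was a member when its best Arabidopsis match was one of 6 hexose carriers, STP1 (AT1G11260), STP3 (AT5G61520), STP5 (AT1G34580), STP7 (AT4G02050), STP13 (AT5G26340) and STP14 (AT1G77210), or one of 3 sucrose carriers, SUC2 (AT1G22710), SUC3 (AT2G02860, also named SUT2) and SUC4 (AT1G09960). These 9 Arabidopsis genes took 17 hexose carrier rows and 14 sucrose carrier rows. STP1 had 6 rows, STP3, STP5 and STP7 had 2 each, STP13 had 1, STP14 had 4, SUC2 and SUC3 had 5 each, and SUC4 had 4. Rows of one gene are called STP1a, STP1b and so on, in falling order of their mean over all samples, and all 31 passed the filter on low values. The rule used sequence matches only and no measured value, but the 9 genes were chosen with earlier results of these data known.

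The study compared the 4 nectary types of cotton, each with the tissue next to it, before, during and after nectar secretion. All plants were untreated Gossypium hirsutum of the line TM-1 from a growth chamber, and an RNA sample came from several pooled nectaries. Floral nectaries lie inside the calyx and were taken on the day before anthesis, at anthesis and on the day after. Bracteal nectaries at the base of each bract and circumbracteal nectaries on the outer calyx, between the bracts, were taken on match-head squares (pre-secretory) and from 19 to 24 days after anthesis (post-secretory). Their secretory stage, and 3 more secretory samples each of the foliar nectary and its adjacent tissue, belonged to a second sequencing set that was not analysed here. Foliar nectaries, on the midvein of the leaf, were pre-secretory on leaves with a midvein of 5 to 6 cm, secretory at 12 to 15 cm and post-secretory on fully mature leaves without nectar. The table held 51 RNA samples of 20 conditions, with 2 or 3 samples in each, except for the secretory foliar nectary and its adjacent tissue with 1 sample each. Nothing in the sources said that replicates came from separate plants, so the p-values measure only the spread between these samples.

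STP and SUC proteins are membrane carriers that move sugar together with protons, so that uptake runs on the proton gradient that plasma membrane H+-ATPases maintain. STP proteins take up glucose and other hexoses from the cell wall space, often after a cell wall invertase has split sucrose there. SUC proteins carry sucrose: SUC2 loads the phloem from companion cells, and SUC4 sits in the vacuolar membrane and releases stored sucrose to the cytosol. Nectaries are fed by the phloem. In the eccrine model the nectar sugars leave their cells through SWEET exporters and are partly split by cell wall invertase. Under this model uptake carriers would work against the direction of secretion or keep sugar inside the tissue. The study's authors count SUT2, STP1, STP13 and STP14 among the patterns that follow this model in the bracteal and circumbracteal types. They propose that these carriers may have a part, beside SWEET9, in secreting nectar sugar there. Their proposal rests on high expression at the secretory stage of these types, which was not analysed here.

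The values of the table were treated as a signal scaled to length and rounded, not as read counts. In 7470 of 40084 rows examined, low values lay on rounded multiples of a step above 1.3. This step was larger in shorter genes (Spearman's correlation -0.42). No examined carrier row had a step above 1.265, so for the carriers the scaling is inferred from other rows. The 2 sequencing runs of an RNA sample were summed and divided by an upper-quartile factor, and the result is called normalized signal. Table totals ran from 7489375 to 16203450 per RNA sample, and rows above 0 from 30965 to 48112, with the lowest number in replicate 3 of the pre-secretory circumbracteal nectary. Differences were tested with limma on log2 of the normalized signal plus 1, over 48846 rows, and a row was called when its Benjamini-Hochberg adjusted p was under 0.05 and its change at least 1.5-fold. All log2 fold changes are on this scale. Groups of 2 or 3 samples can lie apart without a call. In the pre-secretory floral nectary 5 of 31 members were higher and 8 lower than the adjacent tissue without overlap, and in the pre-secretory foliar nectary 3 and 9. The share of all rows without overlap in a single comparison is not given. Lack of overlap without a call is therefore a description. A call was looked at again with the table total or the median of ratios as the scaling, with 10 added in place of 1, with run 1 or run 2 alone, with only the compared samples in the fit (a narrow fit) and without each sample in turn, and those of these settings that ended it are given with their adjusted p. The tissue labels were checked against 3 marker genes of nectaries. The nectary marker signal, almost all of it from rows matching CWINV4, the nectary cell wall invertase, was higher in every nectary sample than in any adjacent sample of its type and stage. The ranges were closest in the pre-secretory bracteal type, at 2349 to 3040 in the nectary and 70.0 to 2203 beside it. SWEET9, the nectar sucrose exporter, was listed at 0 in every sample of the 3 extrafloral types. The study itself reports SWEET9 expression in these types, so this 0 is not taken as absence. CRC, the CRABS CLAW regulator of nectary formation, was at 0 and 1.90 in the pre-secretory floral nectary.

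The levels of the members lay far apart. SUC2a, from the row of LOC107951579, had the highest mean over all 51 samples at 854, followed by STP14a (LOC107962740) at 272, SUC2b (LOC107910491) at 258, STP14b (LOC107901274) at 250.3 and STP1a, which had no gene symbol in the reference, at 235. The leading row of each other gene had a mean of 131 for SUC4a (LOC107957861), 107 for STP13a (LOC107928606), 71.2 for SUC3a (LOC107908466), 46.8 for STP7a (LOC107962537), 23.8 for STP3a (LOC107955114) and 19.8 for STP5a (LOC107957750). SUC2c, SUC2d and SUC2e had means of 5.82, 4.07 and 2.15, and STP1f (LOC107947655) had one of 3.62. Rows matching one gene include the copies of both cotton subgenomes, and where copies are nearly identical the split of reads between them is uncertain. The summed signal of all members was 1255 to 9471 per sample with a median of 2478, and the 4 highest sums were post-secretory foliar samples, with 7477, 8365 and 9471 beside the nectary and 7482 in replicate 2 of the nectary.

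Few carriers separated a nectary from its adjacent tissue. No member was called in the pre-secretory floral nectary, where 7.99% of all rows were called and 5 members had an unadjusted p under 0.05 in limma. At secretion 3 of 31 members (9.68%) were called in the floral nectary, beside 8.39% of all rows, and after secretion none was, beside 3.80%, with 6 members under an unadjusted p of 0.05. In the bracteal nectary no member was called before secretion, beside 0.0614% of all rows and with 1 member under an unadjusted p of 0.05, nor after secretion, beside 2.52% and with 5 such members. The circumbracteal nectary had 1 called member before secretion (3.23%, beside 7.16% of all rows) and 3 after it (9.68%, beside 6.40%). The foliar nectary had 1 called member at each tested stage, beside 0.688% of all rows before and 2.01% after secretion, and it was the same row, STP1f. This row passed the filter on low values only through the foliar nectary samples, so its calls are a description. In most of these comparisons the members' share was near or below that of all rows. The median log2 fold change of the 31 members ran from -0.41 to 0.19 over the 9 comparisons, and that of all rows from -0.27 to 0.09.

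**Figure D1:**
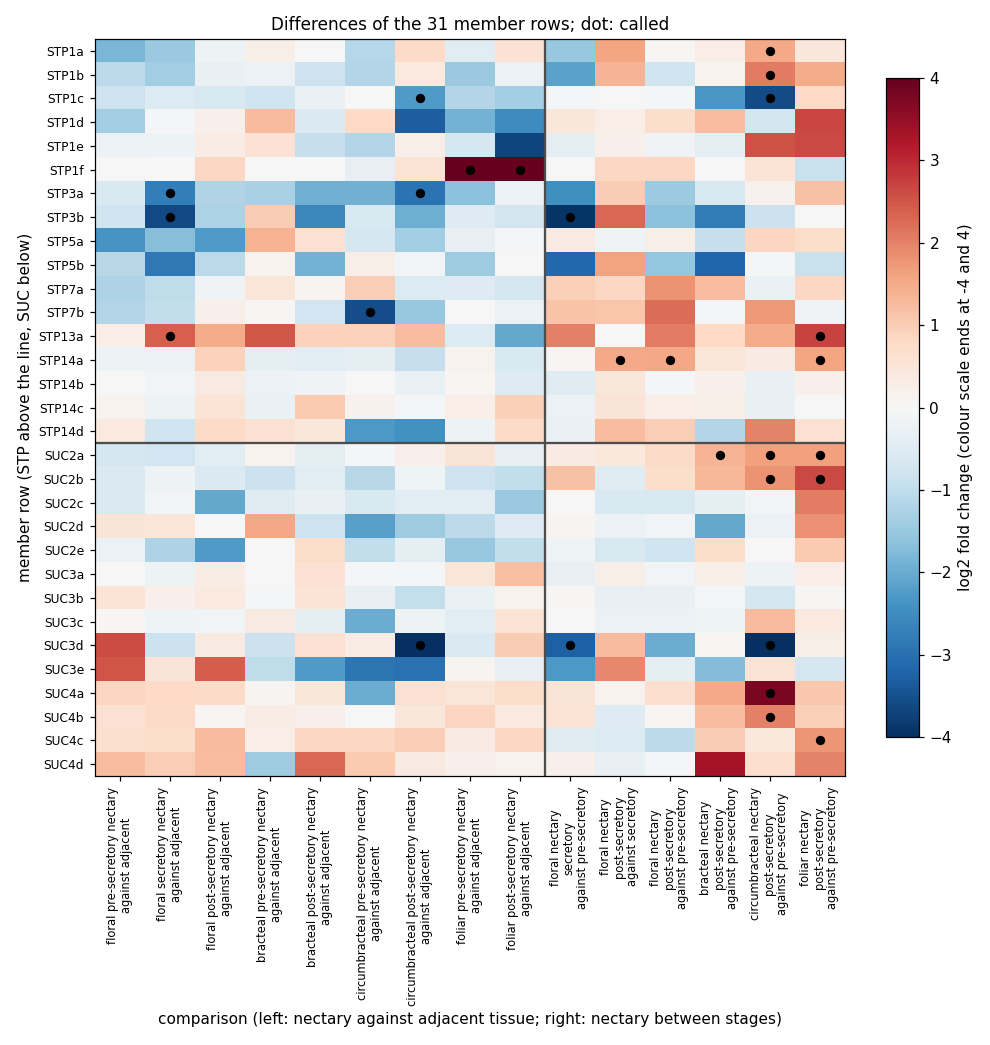
Heat map of the log2 fold change of the 31 carrier rows (vertical axis) in 15 comparisons (horizontal axis), 9 of a nectary against its adjacent tissue and 6 between stages of a nectary. Colour gives the log2 fold change, with a scale that ends at -4 and 4, and a dot marks a row called by limma. Dots are few in the comparisons with adjacent tissue, at most 3 in a column, and most frequent in the circumbracteal column between stages, with 8.

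Between stages of a nectary, the carriers had most calls in the circumbracteal and foliar types, as did all rows, and at shares near those of all rows. From pre- to post-secretory, 8 of 31 members (25.8%) were called in the circumbracteal nectary, beside 22.4% of all rows, and 5 (16.1%) in the foliar nectary, beside 12.3%. The circumbracteal calls were 6 rises and 2 falls, where 12.4% of all rows rose and 10.1% fell. Their count became 0 in a narrow fit. With rows summed by Arabidopsis match it became 3 of 9 genes, where 26.6% of genes were called. The 5 foliar calls were all rises, where 3.70% of all rows rose. The bracteal nectary had 1 called member (3.23%, beside 4.58% of all rows). In the floral nectary 2 members were called from pre-secretory to secretory (6.45%, beside 4.70%), 1 from secretory to post-secretory (3.23%, beside 3.91%) and 1 from pre- to post-secretory (3.23%, beside 7.37%). The adjacent tissues were compared in the same way: none was called beside the floral nectary (2.81% of all rows, 3 members under an unadjusted p of 0.05), 3 beside the bracteal (9.68%, beside 6.23%), 3 beside the circumbracteal (9.68%, beside 9.02%) and 7 beside the foliar nectary (22.6%, beside 14.3%), all of them rises, where 5.11% of all rows rose. The median log2 fold change of the members between stages was 0.43 in the circumbracteal nectary, 0.82 in the foliar nectary and 0.54 beside the foliar nectary, and that of all rows was 0.09, 0.09 and -0.03. The nectary's change minus that of its adjacent tissue was called for 1 member in the circumbracteal type (3.23%, beside 1.03% of all rows). For the floral, bracteal and foliar types no member was called, beside 0.373%, 0.0102% and 0.121% of all rows and with 0, 3 and 0 members under an unadjusted p of 0.05.

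Differences between the nectary types were tested for every pair of types, in contrasts added after the values were seen. In the nectary against its adjacent tissue, the floral and circumbracteal types differed in 1 member before secretion, SUC3e (3.23%, beside 3.60% of all rows), and in 2 after it, SUC3d and SUC3e (6.45%, beside 1.85%). The foliar type differed from the floral in 1 member before and 2 after secretion (3.23% and 6.45%, beside 1.15% and 1.82%), from the bracteal in 1 at each stage (3.23%, beside 0.0635% and 0.604%) and from the circumbracteal in 1 and 2 (3.23% and 6.45%, beside 0.788% and 0.692%). STP1f was among the calls in each of these foliar contrasts, and the other calls were STP13a against the floral and SUC3d against the circumbracteal type. The STP1f calls are a description, because this row passed the filter only through the foliar nectary samples. No member was called between floral and bracteal types (1.07% and 1.45% of all rows, 4 members at each stage under an unadjusted p of 0.05) or between bracteal and circumbracteal types (0.0798% and 0.0757%, 3 and 4 such members). In the change of the nectary from pre- to post-secretory, STP1b, STP1c and SUC4b differed between the floral and circumbracteal types (9.68%, beside 11.9%), SUC4c between the floral and foliar types (3.23%, beside 6.55%), and STP1c and SUC3d between the circumbracteal and foliar types (6.45%, beside 1.76%). No member differed in this change between the floral and bracteal (5.00% of all rows, 3 members under an unadjusted p of 0.05), the bracteal and circumbracteal (0.293%, 3 members) or the bracteal and foliar types (0.170%, 2 members).

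SUC2a, the main row of the companion cell sucrose loader, was higher after secretion than before it in all 3 extrafloral nectaries. Its normalized signal was 344 and 277 in the pre-secretory and 670.0, 624 and 1186 in the post-secretory bracteal nectary. In the circumbracteal nectary it was 274, 526 and 251 before and 1177, 739.8 and 1285 after secretion. In the foliar nectary it was 624 and 759 before and 1514, 2806 and 2349 after, with 1993 in the single secretory sample. The stages did not overlap in any of the 3 types. The log2 fold change was 1.36 (SE 0.41, adjusted p = 0.0445) in the bracteal, 1.65 (SE 0.36, adjusted p = 0.00094) in the circumbracteal and 1.64 (SE 0.41, adjusted p = 0.00529) in the foliar nectary. The bracteal call was lost without pre-secretory replicate 1 or 2 (adjusted p = 0.103 and 0.441) or post-secretory replicate 1 or 3 (0.0636 and 0.241), with total scaling (0.267), median of ratios scaling (0.053) or run 2 alone (0.0524), and in a narrow fit (0.184). The circumbracteal call was lost in a narrow fit (0.109) and the foliar call without pre-secretory replicate 1 (0.122).

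The tissue beside the nectary changed with it. SUC2a was 446 and 174 beside the pre-secretory and 686, 1168 and 1343 beside the post-secretory bracteal nectary (log2 fold change 1.88, SE 0.41, adjusted p = 0.00286). Beside the circumbracteal nectary it was 521, 341 and 221 and then 829, 811 and 1121 (1.42, SE 0.36, adjusted p = 0.00937). In the leaf tissue beside the foliar nectary it was 402 and 585 before and 2388, 2562 and 3214 after secretion (2.47, SE 0.41, adjusted p = 3.01e-05). The value of 3214 was the highest SUC2a value of the series, but these post-secretory leaf samples overlapped with those of the nectary. The difference between the nectary's change and that of its adjacent tissue was -0.52 for the bracteal, 0.23 for the circumbracteal and -0.83 (SE 0.58) for the foliar type, with adjusted p from 0.893 to 1. The adjacent calls were lost without bracteal pre-secretory replicate 2 (1.199, adjusted p = 0.243) and without circumbracteal pre-secretory replicate 3 (0.104) or post-secretory replicate 3 (0.0729), and both with total scaling (0.122 and 0.118) or a narrow fit (0.246 and 0.122). The foliar adjacent call held under every alternative run.

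The floral nectary had the lowest SUC2a level after secretion. Its samples were at 251 and 278 before, 368, 304 and 325 during, and 581, 322 and 478 after secretion, and no change between stages was called. The adjacent floral tissue was at 287, 389.9 and 692, then 671, 656 and 409, then 579, 571 and 699. SUC2a was below the adjacent tissue without overlap before and during secretion and overlapped after it, and none of these differences was called.

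**Figure D2:**
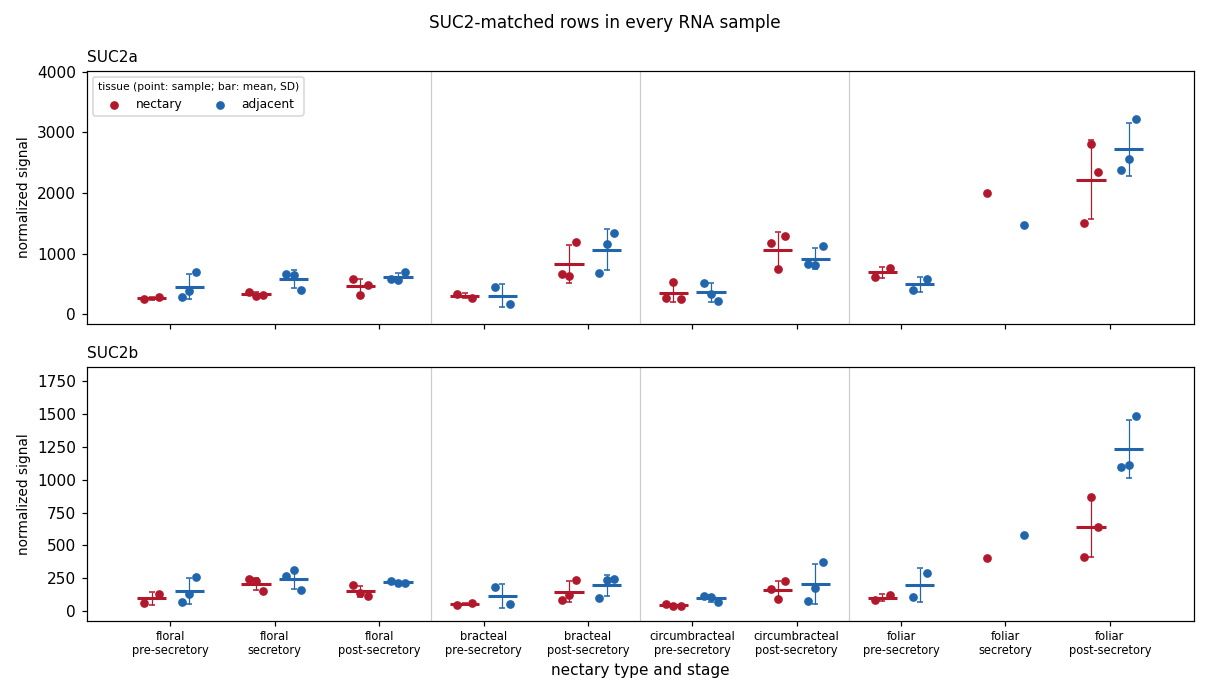
Normalized signal of SUC2a and SUC2b (vertical axes) in each RNA sample of the 20 conditions (horizontal axis), with points for samples (red for the nectary, blue for adjacent tissue) and bars for group means with the SD. The secretory and post-secretory foliar samples lie highest, from 1468 to 3214 for SUC2a.

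SUC2b, the second row of this carrier, was also higher in the foliar samples after secretion. It was 80.0 and 118 in the pre-secretory and 414, 869.9 and 636 in the post-secretory foliar nectary, a log2 fold change of 2.64 (SE 0.57, adjusted p = 0.00145), with 403 in the secretory sample. In the adjacent leaf tissue it was 104 and 287 before and 1099, 1114 and 1487 after secretion (2.81, SE 0.57, adjusted p = 0.000531). Leaving out pre-secretory replicate 1 of the nectary or of the adjacent tissue ended these calls (adjusted p = 0.0684 and 0.0742). In the circumbracteal nectary SUC2b was 50.2, 38.6 and 39.4 before and 162, 88.4 and 229 after secretion (1.79, SE 0.51, adjusted p = 0.00981), a call lost with total scaling (0.0783), in a narrow fit (0.105) and without post-secretory replicate 3 (0.0635). The mean of SUC2b was below that of the adjacent tissue in all 9 comparisons, as for 3.37% of all rows, although none of the 9 differences was called. SUC2c and SUC2d, annotated as low quality proteins, and SUC2e stayed under 25 in all but 2 samples, both beside the post-secretory foliar nectary. By annotation SUC2c and SUC2e were SUC8-like and SUC2d was SUC1-like.

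Companion cells are where SUC2 works, so phloem markers were read beside it. The summed signal of 34 rows of 6 phloem genes other than SUC2 went the other way in the leaf: it was 1166 and 2104 in the pre-secretory and 308 to 902 in the post-secretory foliar nectary, and 2120.1 and 2208 against 613 to 2152 beside it. Of these 34 rows 10 fell and none rose in the foliar nectary, where 8.56% of all rows fell, and 15 fell and none rose beside it, where 9.19% of all rows fell. In the circumbracteal nectary the sum was 3540.2 to 4639 before and 1767 to 2035 after secretion, with 9 rows down and 2 up, where 10.1% of all rows fell. Beside this nectary the sum also fell, from 4223 to 7625 before to 864 to 2110 after secretion. In the bracteal nectary it was 1537 and 3454 before and 2581 to 4539 after, with 4 rows down and none up, where 3.20% of all rows fell. Beside the bracteal nectary it was 2290 and 4591 before and 1809 to 2749 after. One defining phloem gene, NaKR1, was listed at 0 in all 3 post-secretory extrafloral nectaries and the tissue beside them. In the floral nectary 1 phloem gene was likewise at 0 at every stage. In bulk samples, fewer cells of a type and less RNA per cell cannot be told apart.

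SUC4, the vacuolar sucrose carrier, was the gene whose rows stood most often on the nectary side. The nectary mean of SUC4b (LOC107905195) and SUC4c was above that of the adjacent tissue in all 9 comparisons, as for 2.65% of all rows, and that of SUC4a in 8 of 9, as for 8.77% of all rows at 8 or more. The sample values of SUC4a did not overlap, with the nectary higher, in 5 of 9 comparisons (2.93% of all rows at 5 or more) and those of SUC4b in 4 (6.23% at 4 or more). None of these differences was called for a single row. Of the 31 members 3 had a mean above in at least 8 of 9 comparisons, near the share of all rows, and 2 in all 9. As many members, 2, were below in all 9, where 3.37% of all rows were. SUC4 was picked out after these values were seen. SUC4a and SUC4b may not be separate, as the split of reads between copies is uncertain.

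In the floral nectary SUC4a was 104 and 119 before secretion, beside 61.1, 49.3 and 76.7 in the adjacent tissue. At secretion it was 152, 189 and 143 in the nectary and 83.4, 88.1 and 102 beside it. After secretion it was 153, 202 and 177 in the nectary and 124, 88.3 and 104 beside it, so that every floral nectary sample was above every adjacent sample of its stage. SUC4b was 117 and 115 in the nectary before secretion and 84.8, 64.2 and 77.5 beside it, and 157, 174 and 180.4 at secretion beside 88.2, 101 and 110.1. After secretion it overlapped, with 105, 133 and 119 in the nectary and 123, 108 and 108 beside it. With the rows of each Arabidopsis gene summed, over 14133 genes tested, SUC4 was called higher in the floral nectary before secretion (log2 fold change 0.73, adjusted p = 0.0303, with 15.3% of genes called) and at secretion (0.81, adjusted p = 0.00697, with 13.8% called). Phloem marker signal was lower in the floral nectary than beside it, from 707 to 998 against 2681 to 8566 before and from 614 to 1133 against 979.5 to 2638 during secretion, with 5 of 34 rows down and none up at each stage, where 4.32% and 5.35% of all rows were lower.

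SUC4 also rose from pre- to post-secretory in the extrafloral nectaries. In the bracteal nectary SUC4a was 85.7 and 90.9 before and 325, 192 and 271 after secretion, without overlap and without a call, and SUC4b was 100.4 and 69.8 before and 186, 168 and 248 after. Beside it SUC4b was 65.6 and 71.1 and then 191, 137 and 189.5 (1.31, SE 0.40, adjusted p = 0.0398), a call lost with total scaling (0.291), with run 1 alone (0.0682), in a narrow fit (0.107) and without either pre-secretory replicate (0.174 and 0.193) or post-secretory replicate 1 or 3 (0.102 and 0.125). In the circumbracteal nectary SUC4b was 35.5, 39.9 and 157 before and 272, 239 and 237 after secretion (log2 fold change 2.01, SE 0.36, adjusted p = 5.96e-05). SUC4a was 67.3, 98.4 and 0 before and 241, 326 and 209 after (3.75, SE 0.74, adjusted p = 0.000246). In replicate 3 of the pre-secretory group SUC4a was listed at 0 while SUC4b was highest, and the sum of both rows there, 157, lay beside 103 and 138 in the other replicates. Without that replicate the change of SUC4a was 1.63 (adjusted p = 0.000109). Both calls were lost in a narrow fit (0.394 for SUC4a and 0.2 for SUC4b). Beside the nectary SUC4b was 72.3, 96.0 and 33.2 and then 126, 182 and 263 (1.55, SE 0.36, adjusted p = 0.00345), a call lost without pre- or post-secretory replicate 3 (0.0694 and 0.053) and in a narrow fit (0.186).

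In the foliar nectary the called SUC4 row was SUC4c, at 17.4 and 64.1 before and 111, 139 and 106 after secretion (1.78, SE 0.60, adjusted p = 0.0451). This call rested on pre-secretory replicate 1, without which the change was 0.87 (adjusted p = 0.755), and it was also lost without any post-secretory replicate (0.0791 to 0.122), with run 1 alone (0.0769) and in a narrow fit (0.09). SUC4a was 58.3 and 106 before and 176, 184 and 145 after, and SUC4b was 75.7 and 97.4 before and 190.3, 160.4 and 148 after, without overlap and without a call. In the leaf tissue beside it SUC4b was 43.9 and 50.2 before and 126, 120.3 and 129 after secretion (1.40, SE 0.40, adjusted p = 0.0132), a call lost without either pre-secretory replicate (0.141 and 0.0576). Summed over its 4 rows, SUC4 rose by 1.41 (adjusted p = 0.000157) in the bracteal, 1.54 (1.15e-06) in the circumbracteal and 1.23 (0.000254) in the foliar nectary, where 6.65%, 26.6% and 21.4% of genes were called. The same sums rose by 1.12 (0.00167), 1.24 (9.62e-05) and 1.24 (0.000152) in the adjacent tissues, where 9.21%, 12.8% and 22.3% were called. SUC4d, the fourth row, lay between 0 and 59.7 over all samples.

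**Figure D3:**
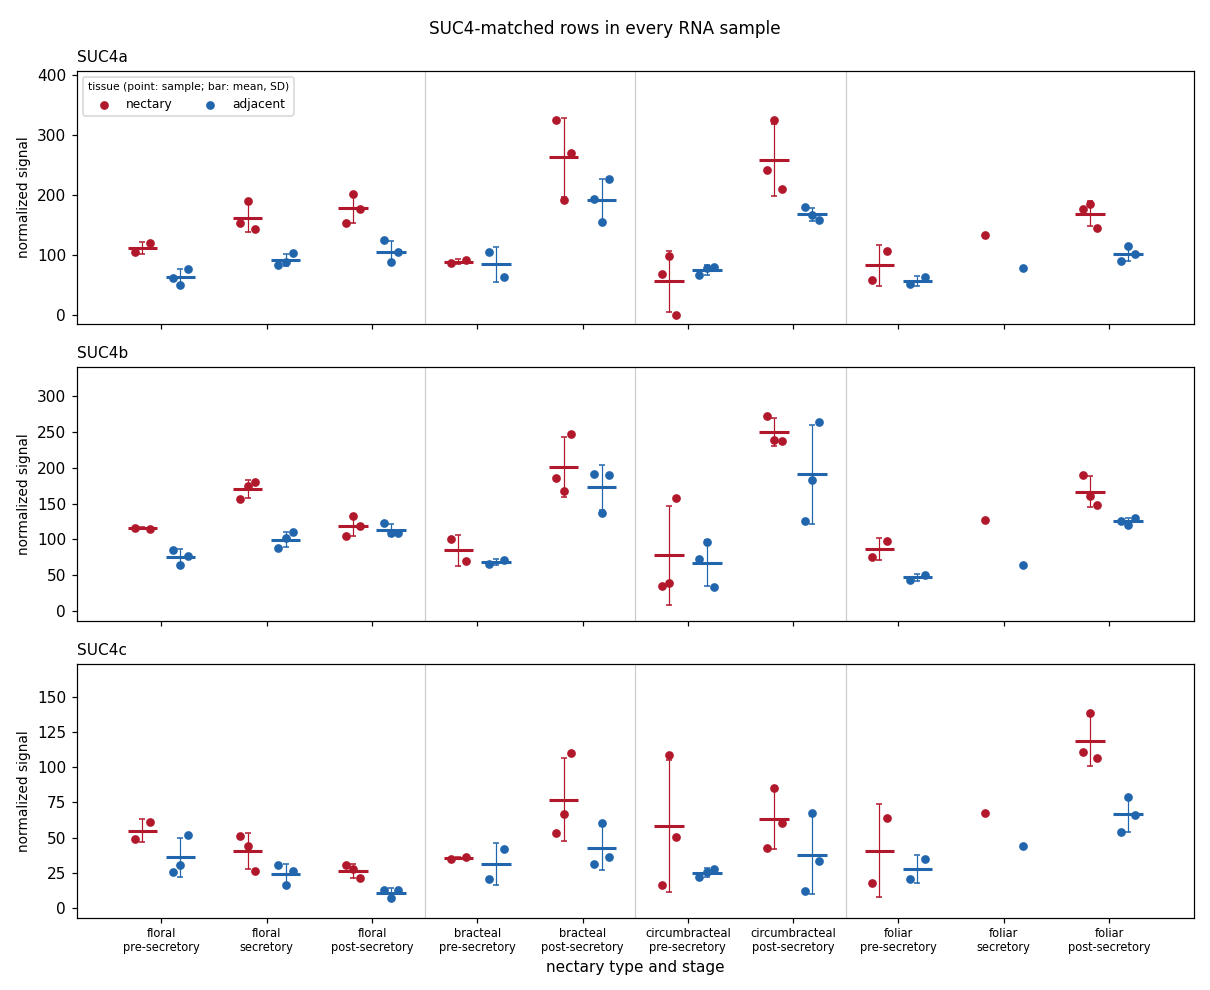
Normalized signal of SUC4a, SUC4b and SUC4c (vertical axes) in each RNA sample by condition (horizontal axis), with points for samples (red for the nectary, blue for adjacent tissue) and bars for group means with the SD. In the floral type all SUC4a nectary points lie above the adjacent points of the same stage, and the pre-secretory circumbracteal nectary has 1 SUC4a point at 0 and 1 SUC4b point at 157.

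SUC3, a sucrose carrier of low affinity, was steadier. SUC3a, SUC3b (LOC107920599) and SUC3c (LOC107893968) had means of 71.2, 39.2 and 28.1 over all samples, and none was called in any nectary or adjacent comparison. SUC3a was at 190.2 in the secretory foliar nectary and 88.7 beside it. After secretion it was 43.6, 109 and 118 in the foliar nectary and 33.2, 41.3 and 31.6 beside it, without overlap and without a call. The called SUC3 row was SUC3d (LOC107946413, annotated as isoform X2), a low row with a mean of 8.25. In the circumbracteal nectary it was 8.57, 10.6 and 51.9 before secretion and listed at 0 in all 3 samples after it (adjusted p = 0.000118). The adjacent tissue was at 16.8, 22.3 and 6.65 before and 24.4, 9.80 and 16.0 after secretion, so that the nectary was lower than its adjacent tissue after secretion (adjusted p = 0.000962), and the nectary's change differed from that of the adjacent tissue (-4.36, SE 1.096, adjusted p = 0.0375).

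The fitted size of these differences depends on the 1 added before the logarithm, since the post-secretory samples are at 0. SUC3e, annotated as isoform X3 of the same protein, was 0 in all pre-secretory and 0, 0 and 2.09 in post-secretory circumbracteal nectary samples. With both isoform rows summed, the circumbracteal calls were kept (adjusted p = 0.000185 between stages, 0.000113 against adjacent tissue and 0.0323 for the difference of changes), and the sum was called higher in the pre-secretory floral nectary (2.78, adjusted p = 0.019), where neither row alone was. On the sum, the pre-secretory difference between floral and circumbracteal types and the difference in change between circumbracteal and foliar nectaries were not called (0.0864 and 0.0941). Called differences between stages and between changes were lost in a narrow fit (0.0753 and 0.461), and the second also with total scaling, with 10 added, with either run alone and without any of 6 of the 12 samples (0.0523 to 0.126). The circumbracteal nectary libraries had few rows above 0, with 39511, 37605 and 30965 before and 36269, 34819 and 43087 after secretion, and a median log2 change of all rows against adjacent tissue of -0.27 before and -0.26 after secretion. The part of this in the values at 0 was not tested. In the floral nectary SUC3d was 21.5 and 16.1 before and 0.912, 0 and 3.40 at secretion (-3.27, SE 0.87, adjusted p = 0.0186), a call lost without either pre-secretory replicate (0.241 and 0.0789) or secretory replicate 1 or 2 (0.0569 and 0.103), with run 2 alone (0.081) and in a narrow fit (0.193).

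Among the hexose carriers only STP13a and STP1f were called higher in a nectary than beside it. STP13 takes up glucose and fructose and is known in Arabidopsis for its induction by pathogens. In the secretory floral nectary STP13a was 118, 38.0 and 221, beside 15.2, 15.6 and 25.9 in the adjacent tissue (log2 fold change 2.38, SE 0.67, adjusted p = 0.0192). The groups did not overlap. The call was lost without nectary replicate 1 or 3 (0.0698 and 0.141) or adjacent replicate 1 or 2 (0.0776 and 0.082), with total scaling (0.079) and in a narrow fit (0.0992). After secretion it was 78.2, 97.8 and 135 in the nectary and 28.7, 35.5 and 43.2 beside it, without overlap but not called (1.49, adjusted p = 0.295), and before secretion the groups overlapped at 31.7 and 18.0 against 17.3, 29.8 and 14.6.

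In the leaf STP13a was at 45.7 in the secretory nectary sample and 39.5 beside it. The post-secretory foliar nectary was at 134, 406 and 82.5 and the tissue beside it at 355, 728 and 1275, overlapping groups with a difference of -2.06 (adjusted p = 0.132). Both rose from pre-secretory: the nectary from 13.0 and 44.8 (2.71, SE 0.75, adjusted p = 0.0132) and the adjacent tissue from 19.8 and 66.4 (4.21, SE 0.75, adjusted p = 9.95e-05). The nectary call was lost without pre-secretory replicate 1 (0.4) or post-secretory replicate 2 (0.104) and in a narrow fit (0.086), and the adjacent call held under every alternative run. The difference between nectary and adjacent tissue after secretion was larger in the floral than in the foliar type by 3.55 (SE 0.95, adjusted p = 0.0394, with 1.82% of all rows called), a contrast added after the values were seen and lost under 12 of 20 alternatives. In the bracteal type STP13a was 84.8 and 23.3 against 7.09 and 7.32 before and 76.8, 108 and 58.5 against 27.3, 74.4 and 34.0 after secretion, and in the circumbracteal type 52.7, 43.9 and 32.2 against 38.6, 7.75 and 31.9, then 93.1, 127 and 142 against 21.0, 37.2 and 157. None of these was called, and the groups overlapped except in the pre-secretory bracteal type.

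**Figure D4:**
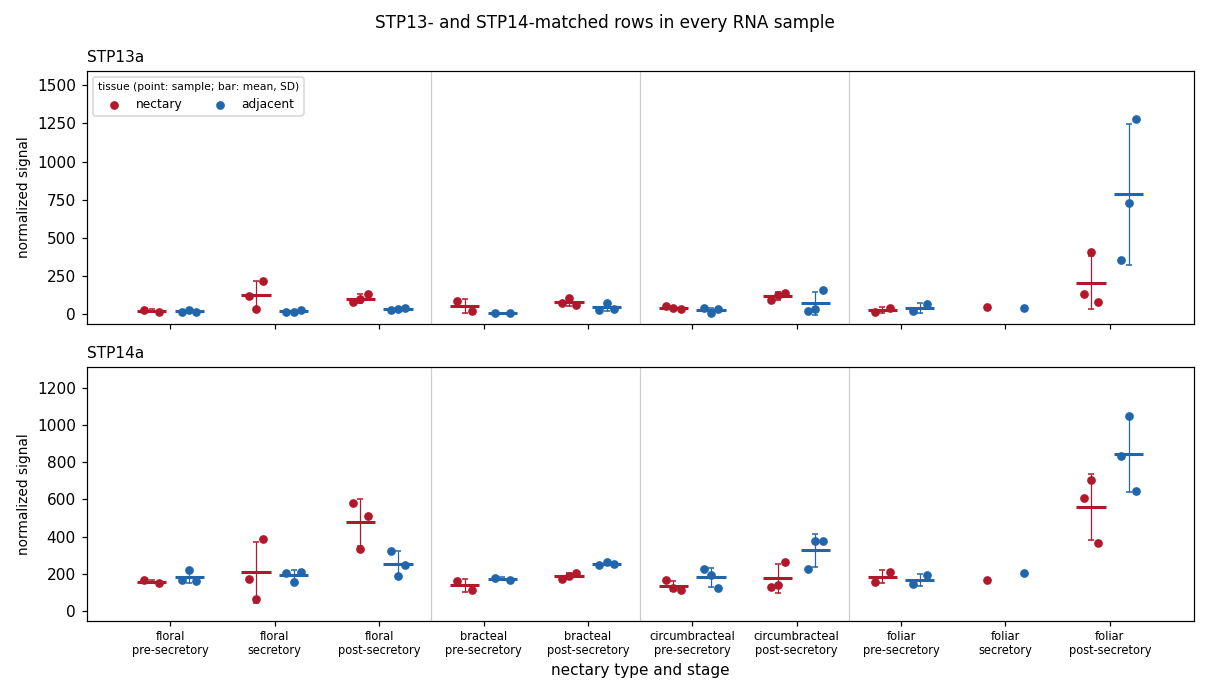
Normalized signal of STP13a and STP14a (vertical axes) in each RNA sample by condition (horizontal axis), with points for samples (red for the nectary, blue for adjacent tissue) and bars for group means with the SD. STP13a reaches 1275 beside the post-secretory foliar nectary, while in the secretory floral type it is at 38.0 to 221 in the nectary and at 15.2 to 25.9 beside it.

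STP14, a galactose carrier in Arabidopsis, had the highest hexose carrier row, STP14a. In the floral nectary it was 164 and 151 before, 173, 61.7 and 386 during, and 583, 335 and 512 after secretion. The rise from pre- to post-secretory was 1.56 (SE 0.43, adjusted p = 0.0188) and that from secretory to post-secretory 1.52 (SE 0.39, adjusted p = 0.0163), where the groups overlapped through secretory replicate 3. Without secretory replicate 2 the second change was 0.84 (adjusted p = 0.385), and it was also lost without post-secretory replicate 1 or 3 (0.105 and 0.0876) and in a narrow fit (0.378). The first was lost without either pre-secretory replicate (0.135 and 0.113) or post-secretory replicate 1 or 3 (0.0883 and 0.0634) and in a narrow fit (0.0743). The adjacent floral tissue was at 164, 219 and 161 before and 324, 186 and 248 after secretion, below every post-secretory nectary sample, and its change was not called.

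In the foliar nectary STP14a was 157 and 207 before and 608, 705 and 364 after secretion (1.57, SE 0.43, adjusted p = 0.0122). In the leaf beside it the values were 143 and 191, then 834, 1050.0 and 648 (2.32, SE 0.43, adjusted p = 0.000171), a call that held under every alternative run. The nectary call was lost without pre-secretory replicate 1 (0.218) or post-secretory replicate 2 (0.0633). The secretory foliar samples were still at 165 in the nectary and 201 beside it, near the pre-secretory samples. STP14b, at 273 and 212 and then 512, 448 and 328 beside the foliar nectary, was called there (0.81, SE 0.27, adjusted p = 0.0359), a call lost with total scaling (0.112), with run 2 alone (0.0719), in a narrow fit (0.115) and without 4 of its 5 samples in turn (0.0772 to 0.269). In all nectary samples STP14b lay between 143 and 366. STP14c had a mean of 66.6 and STP14d (LOC107922218, annotated as sugar transport protein 11-like) one of 9.03, with no call. In the leaf the mesophyll marker signal of 13 rows fell over the same stages, from 11198 and 31814 to between 3146 and 7312 in the nectary. There 4 rows were down and none up, where 8.56% of all rows fell. Beside the foliar nectary it fell from 35678 and 81626 to between 4103 and 17362. In the floral nectary this signal rose over the stages at which STP14a rose, from 535 and 883 before to between 5533 and 11774 after secretion. There 11 rows were up and none down, where 7.37% of all rows were called in either direction and 58.4% of these calls were rises. Beside the floral nectary the mesophyll marker signal was 637 to 4721 before and 4423 to 7209 after secretion. The part of these cells in the changes of STP14a was not tested.

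STP1 is a glucose carrier found in guard cells, roots and seedlings of Arabidopsis. Its leading rows STP1a and STP1b (LOC107938226) had their highest group means beside the pre-secretory floral nectary, at 602, 1286 and 457 for STP1a and 504, 815 and 369.6 for STP1b. The nectary itself was at 185 and 209 for STP1a and 287 and 229.8 for STP1b, lower without overlap and not called (adjusted p = 0.0652 and 0.457). In the circumbracteal nectary STP1a was 167, 175 and 26.8 before and 209.7, 451 and 206 after secretion (1.53, SE 0.56, adjusted p = 0.0466). STP1b was 45.3, 149 and 8.95 before and 159.5, 211 and 148 after (2.07, SE 0.61, adjusted p = 0.0122), with overlap. Both changes rested on pre-secretory replicate 3, without which they were 0.65 (adjusted p = 0.467) and 1.05 (0.223), and both were lost in a narrow fit (0.439 and 0.386). The STP1a call was also lost without any of the post-secretory replicates (0.0511 to 0.205), with total scaling (0.155), with median of ratios scaling (0.0583), with 10 added (0.05) and with run 2 alone (0.0892).

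The other STP1 rows did not follow these. STP1c (LOC107900618) fell in the circumbracteal nectary from 14.7, 41.2 and 32.2 to 0, 3.10 and 2.09 (-3.59, SE 0.66, adjusted p = 9.96e-05), a call lost in a narrow fit (0.153), and after secretion it was lower than in the adjacent tissue at 11.1, 5.88 and 16.0 (-2.27, SE 0.66, adjusted p = 0.031). The second call was lost without nectary replicate 1 (0.191) or adjacent replicate 1 or 3 (0.0675 and 0.144), with total scaling (0.0665), with 10 added (0.191), with run 2 alone (0.107) and in a narrow fit (0.314). Beside the bracteal nectary STP1c fell from 52.3 and 46.0 to 7.44, 3.28 and 7.94 (-2.87, SE 0.74, adjusted p = 0.0122), a call lost without either pre-secretory replicate (0.0878 and 0.11) or post-secretory replicate 2 (0.0527) and in a narrow fit (0.157). Its highest values were in the leaf tissue beside the foliar nectary, from 146 to 355 over all stages, where the nectary was at 66.7 to 184.

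STP1d (LOC107937779) and STP1e (LOC107924896) were highest beside the post-secretory foliar nectary. STP1e was 269.7, 317 and 375 beside the post-secretory foliar nectary and at most 68.1 in every other sample. From 2.58 and 10.5 before secretion it rose there by 5.63 (SE 1.302, adjusted p = 0.00211), a call lost without pre-secretory replicate 1 (0.0805). STP1d was 408, 555 and 495 there after 44.8 and 52.6, a difference that was not called (adjusted p = 0.0682). It was called beside the circumbracteal nectary, at 0, 17.4 and 1.33 before and 23.3, 32.3 and 59.9 after secretion (3.39, adjusted p = 0.045), and that call was lost without either of pre-secretory replicates 1 and 3 or any post-secretory replicate (0.0533 to 0.23), with total scaling (0.0724), with 10 added (0.0571), with run 2 alone (0.0866) and in a narrow fit (0.228).

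STP1f was found in the foliar nectary and almost nowhere else. It was 27.0 and 55.3 in the pre-secretory, 32.7 in the secretory and 15.1, 24.1 and 22.8 in the post-secretory foliar nectary, and listed at 0 in all 6 adjacent leaf samples. Over the whole series it was at 0 in 42 of 51 samples, and the only values outside the foliar nectary were 4.65, 2.09 and 0.990, each in 1 replicate of a floral nectary, a circumbracteal nectary and a circumbracteal adjacent group. STP1f passed the filter on low values only through the foliar nectary samples, so a row admitted by this filter had to be higher there. Its calls and adjusted p-values, also in the contrasts between types, are therefore a description and not support. The difference from the adjacent tissue was called before (adjusted p = 3.23e-07) and after secretion (adjusted p = 1.22e-07), and no fold is given because the adjacent samples are at 0. The post-secretory call held under every alternative run, and the pre-secretory call was lost with only its 4 samples in the fit (0.316). The nectary minus adjacent difference was lower by 3.58 to 5.64 on the log2 scale in each of the other 3 types at both stages, with adjusted p from 5.29e-05 to 0.00227, in contrasts added after the values were seen and with 0.0635% to 1.82% of all rows called. Before secretion, the calls against the bracteal and circumbracteal types were lost in a narrow fit (0.545 and 0.0796), and all of these sizes depend on the 1 added.

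**Figure D5:**
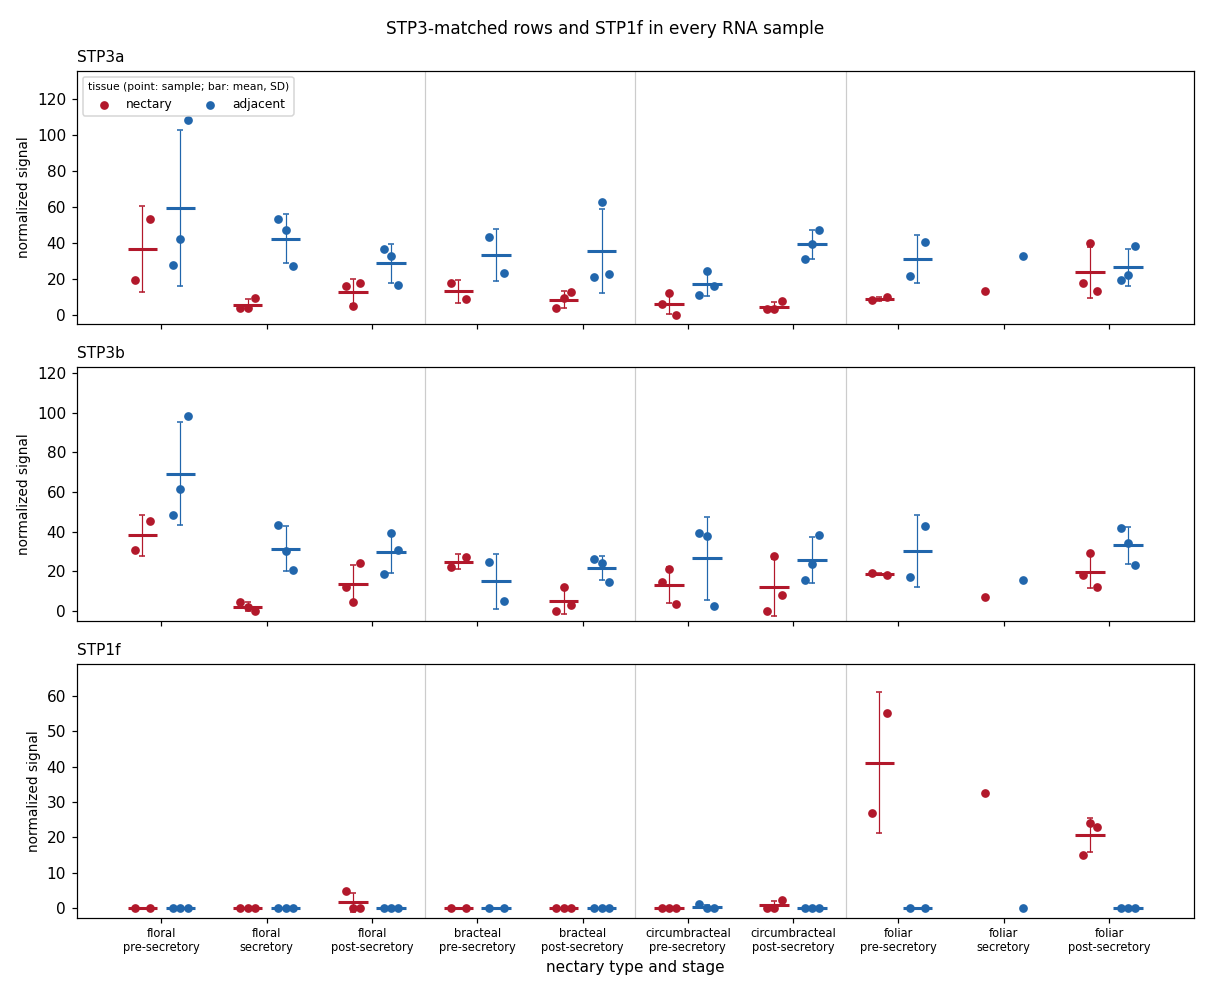
Normalized signal of STP3a, STP3b and STP1f (vertical axes) in each RNA sample by condition (horizontal axis), with points for samples (red for the nectary, blue for adjacent tissue) and bars for group means with the SD. STP1f lies at 15.1 to 55.3 in the 6 foliar nectary samples and at 0 in all foliar adjacent samples, and STP3a at 3.65 to 9.08 in the secretory floral nectary beside 26.8 to 52.9.

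STP3, a wound-induced monosaccharide carrier of Arabidopsis leaves, stood on the side of the adjacent tissue. The mean of STP3a was below that of the adjacent tissue in all 9 comparisons, as for 3.37% of all rows. Its samples were lower without overlap in 5 of them (3.98% of all rows at 5 or more). In the secretory floral nectary it was 3.65, 3.80 and 9.08, beside 52.9, 46.9 and 26.8 (-2.77, SE 0.70, adjusted p = 0.00824), a call that held under every alternative run. In the post-secretory circumbracteal nectary it was 2.95, 3.10 and 7.32, beside 31.02, 39.2 and 47.1 (-2.95, SE 0.70, adjusted p = 0.00834), lost in a narrow fit (0.154). The second row, STP3b (LOC107933457), was 30.7 and 45.6 in the pre-secretory and 4.56, 1.90 and 0 in the secretory floral nectary, and 43.3, 30.5 and 20.6 beside the latter. It was lower in the secretory nectary than in the adjacent tissue (-3.62, SE 0.93, adjusted p = 0.00892) and than before secretion (-3.93, SE 1.04, adjusted p = 0.0181). The first call was lost without nectary replicate 3 (0.0667), and the second without that replicate (0.0888) or either pre-secretory replicate (0.129 and 0.131) and in a narrow fit (0.186). Summed over both rows STP3 was lower than in the adjacent tissue in the secretory floral nectary (-3.07, adjusted p = 0.00154, with 13.8% of genes called). The sum was also lower than in the adjacent tissue in the post-secretory circumbracteal nectary (-2.32, adjusted p = 0.0295, with 7.33% called).

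STP7 carries arabinose and xylose in Arabidopsis. STP7b (LOC107901373) was 1.22, 9.31 and 0 in the pre-secretory circumbracteal nectary, beside 42.6, 40.7 and 18.6 in the adjacent tissue (-3.53, SE 0.78, adjusted p = 0.00396). The groups did not overlap, and the call was lost without nectary replicate 3 (0.0532) and in a narrow fit (0.455). The other row, STP7a, was not lower there, at 26.9, 50.5 and 37.6 beside 15.8, 35.9 and 10.6. In the floral nectary STP7a was 31.7 and 14.2 before and 66.1, 84.6 and 80.5 after secretion, and STP7b was 20.5 and 13.3 before and 64.2, 109 and 78.4 after, both without overlap and neither called. With both rows summed STP7 rose from pre- to post-secretory in the floral nectary (2.04, adjusted p = 0.00255, with 13.8% of genes called). The STP5 rows stayed at or under 60.9 in every sample and were never called. STP5a was 7.16 and 8.55 in the pre-secretory floral nectary beside 34.7, 44.7 and 56.0, and 21.4, 8.46 and 4.18 after secretion beside 57.4, 45.1 and 43.2, lower without overlap both times. Of the 31 members 8 and 3 were lower without overlap in these comparisons.

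Other genes that handle the same sugars were counted over the same comparisons. By best Arabidopsis match, 2 of 8 other STP genes had rows, 4 in all, and no other SUC gene had any. Rows annotated as SUC1-like, SUC8-like or sugar transport protein 11-like were counted under their match, SUC2 or STP14. The shares of all rows called, in either direction, were 7.99%, 8.39% and 3.80% in the pre-secretory, secretory and post-secretory floral nectary against adjacent tissue, and 22.4% and 12.3% in the circumbracteal and foliar nectary between stages. Of the 15 rows of cell wall invertases, which supply hexoses to STP carriers, 6, 4 and 2 were higher and none lower in the floral nectary at these stages, with 1 higher and none lower in the circumbracteal and none in the foliar nectary between stages. Of the 11 rows of clade III SWEET exporters 5, 3 and 1 were higher and 0, 2 and 0 lower in the floral nectary, and 2 fell and none rose in each of the circumbracteal and foliar nectaries. Of the 18 rows of plasma membrane H+-ATPases, which make the proton gradient, 4, 1 and 3 were higher and 1 lower at each floral stage, with 3 up and 3 down in the circumbracteal and 4 up and 1 down in the foliar nectary. Of the 45 tested rows of other monosaccharide, polyol and inositol carriers 3, 0 and 0 were higher and 6, 5 and 3 lower in the floral nectary, with 7 up and 1 down in the circumbracteal and 1 up and none down in the foliar nectary. Of the 4 rows of other STP genes 1 was higher in the pre-secretory and 1 lower in the secretory floral nectary, and none was called in the other 3 comparisons.

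Over the means of the 20 conditions, and among 22138 other rows with a mean of at least 100 in some condition, the pattern of STP14a was closest to that of LOC107922953, annotated as a probable WRKY47 transcription factor (Pearson's r = 0.89), LOC107943287, a beta-galactosidase 1-like row (0.87), and LOC107886276, an ACC oxidase homolog 4-like row (0.86). The closest rows to SUC2a were the uncharacterized LOC107907155 (0.93), LOC107961961, a putative cysteine-rich receptor-like kinase (0.92), and LOC107926170, a scarecrow-like row (0.92). These correlations are a description over conditions that share libraries and tissues.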

How the data were processed

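Upland cotton RNA samples of 20 conditions were sequenced in 2 runs each. The deposited protein table gave a signal per run: the authors assigned reads to transcripts, and per the file headers each row was a RefSeq protein with its best Arabidopsis match. In part of the rows the rounded values lay on steps that were larger in shorter genes, so the signal was treated as scaled rather than counted. How this table was aligned, annotated, filtered and scaled is not given in the sources used here.

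Both runs were summed and divided by the upper-quartile (75th percentile) factor. Rows reaching 10 in 2 or more RNA samples entered the test, 1 was added, and log2 values were fitted over all 51 samples with limma 3.58.1 in R 4.3.3 (1 coefficient per condition, trended variance) and Benjamini-Hochberg adjustment over 48846 rows. Calls needed a 1.5-fold change with adjusted p below 0.05. Unadjusted counts use the same test. The scripts were tested on simulated data. Tables and figures were made with matplotlib 3.10.9, scipy 1.17.1, pandas 2.3.3 and numpy 2.4.6 under python 3.11.15. Gene symbols came from RefSeq's annotation, in which 26 of 31 members matched.

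Named were the highest row of each Arabidopsis gene and, per comparison, up to 3 called rows with the largest change whose higher group averaged 100 or more. Other rows were chosen after their values were seen, and members and lists were chosen with earlier results of these data known. A second sequencing set of 18 samples was not analysed here. Table totals limit the precision only roughly, because the read depth behind the signal is unknown, and no counting interval is given.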

Additional observations from a re-analysis of the deposited data

Results flagged for a closer look

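The change of SUC3d from pre- to post-secretory in the circumbracteal nectary differed from that of its adjacent tissue by -4.36 (log2 scale, adjusted p = 0.0375). No group had 4 or more samples, so that single samples far from the rest of their group could not be tested for.

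The nectary minus adjacent difference of STP1f was lower than in the foliar type by -5.31 in the floral, -5.31 in the bracteal and -5.64 in the circumbracteal type before secretion, and by -3.58, -4.41 and -3.87 after secretion (adjusted p from 5.29e-05 to 0.00227). The calls were kept in all alternatives except 2 of 16 for the bracteal and 1 of 18 for the circumbracteal type before secretion. They are a description and not support, because STP1f passed the filter on low values only through the foliar nectary samples. STP1f was at 32.7 in the single secretory foliar nectary sample, which entered no test, and at 0 beside it.

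The same difference was larger in the floral than in the circumbracteal type by 5.45 before and 5.40 after secretion for SUC3e (adjusted p = 0.0226 and 0.0245) and by 4.43 after secretion for SUC3d (0.0229). It was lower in the circumbracteal than in the foliar type by -5.07 for SUC3d after secretion (0.0146). It was larger in the floral than in the foliar type by 3.55 for STP13a after secretion (0.0394). SUC3e kept its call in 12 of 19 alternatives before and 11 of 20 after secretion, SUC3d in 15 of 21 and 17 of 21, and STP13a in 8 of 20.

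The change of the nectary from pre- to post-secretory differed between types in 6 cases. For STP1c it was lower in the circumbracteal than in the foliar nectary by -4.39 (adjusted p = 0.0146) and higher in the floral than in the circumbracteal nectary by 3.51 (0.0152). For SUC3d it was lower in the circumbracteal than in the foliar nectary by -4.40 (0.0384). For STP1b and SUC4b it was lower in the floral than in the circumbracteal nectary by -2.86 (0.0347) and -1.98 (0.011), and for SUC4c lower in the floral than in the foliar nectary by -2.82 (0.0347). The calls were kept in 15 of 19 alternatives for each STP1c contrast, 5 of 20 for SUC3d, 11 of 19 for STP1b, 17 of 19 for SUC4b and 7 of 18 for SUC4c. All contrasts between types were added after the values were seen.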

How the results depend on the processing

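None of the 58 called differences of single rows reversed its direction under any of the alternatives run for it, a count that leaves out differences that were not called. Of 28 calls in nectary comparisons 3 were kept under every alternative, STP3a in the secretory floral nectary, SUC3d in the post-secretory circumbracteal nectary and STP1f in the post-secretory foliar nectary, each against adjacent tissue. Of 13 calls in adjacent tissue between stages 3 were, SUC2a, STP13a and STP14a beside the foliar nectary. The STP1f call is a description, because this row passed the filter on low values only through the foliar nectary samples. With only the compared samples in the fit 21 of the 28 calls were lost, with fewer samples behind the spread, and leaving out 1 sample lost 49 of 163 checks. The filter on low values changed no call. The read depth behind the signal is unknown, so for low rows such as SUC3d, SUC3e and STP1f a value of 0 says only that the row is listed at 0.

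The number of members called moved by more than 1.5 times as follows. These counts, and those without each sample in turn below, are not set beside the share of all rows called under the same setting. They describe how far the counts depend on the processing and do not set the carriers apart from other rows. Against adjacent tissue, the pre-secretory floral count of 0 became 1 with median of ratios scaling, 3 with 10 added, 1 with run 1 alone, 1 with rows summed by Arabidopsis match and 1 with a replicate block. The secretory floral count of 3 became 5 with total scaling. The post-secretory floral count of 0 became 1 with 10 added, 2 with run 2 alone and 1 in a narrow fit, and the post-secretory bracteal count of 0 became 1 with run 1 alone. The pre-secretory circumbracteal count of 1 became 2 with run 2 alone, 0 in a narrow fit and 0 with summed rows, and the post-secretory count of 3 became 1 in a narrow fit, 1 with summed rows and 5 with a replicate block. The pre-secretory foliar count of 1 became 0 in a narrow fit and 0 with summed rows, and the post-secretory count of 1 became 5 with 10 added, 2 with either run alone and 0 with summed rows.

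Between stages, the floral secretory against pre-secretory count of 2 became 4 with 10 added, 1 in a narrow fit and 1 with summed rows. The floral post-secretory count of 1 against secretory became 0 in a narrow fit, and that of 1 against pre-secretory became 3 with 10 added, 2 with run 1 alone, 0 in a narrow fit, 2 with summed rows and 0 with a replicate block. The bracteal count of 1 became 0 with total scaling, median of ratios scaling, run 2 alone, a narrow fit or a replicate block, and 2 with 10 added or with summed rows. The circumbracteal count of 8 became 0 in a narrow fit and 3 with summed rows, and the foliar count of 5 became 8 with 10 added. The circumbracteal difference of changes, 1 member, became 0 with total scaling, 10 added, either run alone, a narrow fit or summed rows, and the foliar one of 0 became 1 with 10 added. In adjacent tissue the floral count of 0 became 1 with run 2 alone, the bracteal count of 3 became 0 in a narrow fit, the circumbracteal count of 3 became 1 with total scaling or a narrow fit, and the foliar count of 7 became 4 with summed rows.

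Without each sample in turn, the counts against adjacent tissue ran from 0 to 2, 2 to 3 and 0 to 0 for the floral stages, 0 to 0 for both bracteal stages, 0 to 5 and 2 to 6 for the circumbracteal and 1 to 1 and 1 to 2 for the foliar stages. Between stages they ran from 0 to 4 (floral secretory against pre-secretory), 0 to 3 (floral post-secretory against secretory), 0 to 1 (floral post- against pre-secretory), 0 to 3 (bracteal), 6 to 10 (circumbracteal) and 0 to 5 (foliar). For the differences of changes they were 0 to 0 in the floral, bracteal and foliar types and 0 to 3 in the circumbracteal type, and in adjacent tissue 0 to 0, 0 to 2, 0 to 3 and 3 to 7 for the floral, bracteal, circumbracteal and foliar types.

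The replicate number was not taken to pair the samples, since not every pair of same-numbered samples deviated together: the deviations of nectary and adjacent samples correlated at over 0.1 in 17 of 23 pairs (r from -0.12 to 0.41, median 0.18), and those between stages in 6 of 14 nectary and 4 of 16 adjacent pairs. A replicate block ended 5 of the 28 calls in nectary comparisons: STP3b (adjusted p = 0.0511) and STP14a (0.136) in the floral, SUC2a (0.129) in the bracteal, and SUC2a (0.0513) and SUC4c (0.0522) in the foliar nectary between stages. It also ended the calls of SUC4b beside the bracteal (0.183) and of SUC4b and STP14b beside the foliar nectary (0.0651 and 0.0997), and of the differences between types for STP1f, bracteal minus foliar before secretion (0.216), SUC4c, floral minus foliar (0.0628), and SUC3d, circumbracteal minus foliar (0.0923).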
